A study of Mus musculus with 12 samples.

Results

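A set of 10 genes that mark blood vessel endothelium was followed in satellite cells, the stem cells of skeletal muscle, which had been sorted to leave endothelial cells out. The genes were taken by symbol and are *Pecam1*, *Cdh5*, *Kdr*, *Tek*, *Vwf*, *Esam*, *Emcn*, *Tie1*, *Egfl7* and *Cldn5*, 10 of the 25093 genes in the deposited count table, and all 10 had counts in each library used here. Satellite cells were isolated by FACS and 12 libraries of polyadenylated RNA were made, each with 20 ng of input, and fell into 4 groups, 3 libraries per group. Quiescent satellite cells (QSCs) came from uninjured hindlimb muscles of mice 3 to 4 months old, with 2 to 3 mice combined in each library. Activated satellite cells (ASCs) came from muscles injured with cardiotoxin 3 days earlier, with 1 mouse per library. All mice carried one *Pax7-CreERT2* allele, which drives a tamoxifen-dependent Cre from the *Pax7* locus, and the *R26R-YFP* reporter, and all received tamoxifen. The control mice (*Gli3*+/+) had intact *Gli3*, and the knockout mice (*Gli3*Δ/Δ) were *Gli3* fl/fl, in which Cre removes exon 8 in cells that express *Pax7*. The sort for QSCs kept cells positive for α7-INTEGRIN and CD34 and negative for CD31, CD45, SCA1 and CD11b. The sort for ASCs used VCAM1 in place of CD34.

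CD31 is the product of *Pecam1*, so 1 of the 10 genes encodes the protein by which endothelial cells were gated out. Cre is not expected in endothelium, which does not express *Pax7*. For the 6 ASC libraries, the names of the count columns fit no sample label, and these columns were not used, so all values by library below are from QSCs.

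Endothelial cells line the vessels and hold together through junction proteins such as VE-cadherin (*Cdh5*), PECAM1, ESAM and claudin 5 (*Cldn5*). Their growth and quiescence are set by receptor tyrosine kinases, chiefly the VEGF receptor KDR and the angiopoietin receptor TIE2, the product of *Tek*, with its partner TIE1. Muscle capillaries run close to satellite cells, and satellite cells also express *Tek*, whose ligand angiopoietin 1 has been linked to their quiescence. The remaining genes encode the clotting glycoprotein von Willebrand factor (*Vwf*), the secreted factor EGFL7 and the surface sialomucin endomucin (*Emcn*).

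RefSeq promoter entries on GRCm38.p6 matched 6 of the 10 genes (*Egfl7*, *Emcn*, *Tek*, *Tie1*, *Kdr* and *Cldn5*). Those of *Tek*, *Kdr* and *Emcn* are shown for these reasons. *Tek* correlated least with the sum of the others over the 6 libraries. *Kdr* varied most, and *Emcn* was the 1 gene whose genotype groups did not overlap. Each window is the 250 bases before the start site, with matches to AGGAAG, a form of the ETS site, on either strand in capitals. ETS factors bind such sites and several of them act in endothelium. Other forms of the site were not searched.
Tek (chr4:94739039-94739288, plus strand): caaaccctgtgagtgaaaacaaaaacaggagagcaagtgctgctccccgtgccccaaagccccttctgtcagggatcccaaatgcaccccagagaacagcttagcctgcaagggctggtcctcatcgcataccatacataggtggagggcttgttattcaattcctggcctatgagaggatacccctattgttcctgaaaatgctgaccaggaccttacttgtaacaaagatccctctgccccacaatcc
Kdr (chr5:75978456-75978705, minus strand): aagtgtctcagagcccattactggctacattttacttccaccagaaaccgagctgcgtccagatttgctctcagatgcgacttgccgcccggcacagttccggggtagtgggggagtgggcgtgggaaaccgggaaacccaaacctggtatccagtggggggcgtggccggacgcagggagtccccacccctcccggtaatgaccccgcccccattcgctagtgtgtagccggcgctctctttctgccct
Emcn (chr3:137340828-137341077, plus strand): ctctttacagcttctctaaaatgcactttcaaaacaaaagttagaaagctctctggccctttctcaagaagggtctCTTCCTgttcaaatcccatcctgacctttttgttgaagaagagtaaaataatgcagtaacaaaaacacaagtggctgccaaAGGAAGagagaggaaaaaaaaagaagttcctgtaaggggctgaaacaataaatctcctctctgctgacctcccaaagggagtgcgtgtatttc
The letters AGGAAG were found 2 times in the window of *Emcn* and not in those of *Tek*, *Kdr* and *Cldn5*. The windows of the 3 RefSeq starts of *Egfl7* held 3, 1 and 0 matches, and that of *Tie1* held 1. In the *Tie1* window, 212 of the 250 bases lie in annotated exons. Of 32851 RefSeq windows of this length, 29.5% held AGGAAG. The GATA letters AGATAA (9.99% of windows), searched on both strands, were in none of the 8 windows of the 6 genes. These matches describe letters and not occupied sites.

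The QSC libraries held 39556730 to 65750087 estimated counts. Levels are given as CPM, the counts scaled to one library size, after TMM normalization, which also adjusts for differences in composition. The satellite cell list was high in every library, with *Pax7* at 798 to 1157 CPM. Over the list of 10 satellite cell genes, the sum was 5148 to 7190 CPM in *Gli3*+/+ and 5376 to 5926 CPM in *Gli3*Δ/Δ libraries, and no member was called between genotypes. The targeted gene *Gli3* was at 11.2, 9.71 and 9.75 CPM in *Gli3*+/+ libraries 1 to 3 and at 9.54, 10.5 and 6.25 CPM in *Gli3*Δ/Δ libraries 1 to 3, and was not called (log2 fold change −0.22, SE 0.22, Benjamini-Hochberg adjusted p = 0.916 by the quasi-likelihood test of edgeR). Gene counts do not resolve the loss of 1 exon, so this does not check the knockout labels. Among 25093 genes, 88 were called between genotypes (adjusted p below 0.05, fold change 1.2 or more), which is 0.351% of them, 47 higher and 41 lower in *Gli3*Δ/Δ QSCs.

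*Tek* (ENSMUSG00000006386.15, GRCm38 chromosome 4, 94739289 to 94874976, plus strand) was by far the highest of the 10 endothelial genes. Over all 6 libraries *Tek* also had the lowest correlation with the sum of the others, but not with 2 libraries left out. In *Gli3*+/+ QSCs it was at 117, 120.3 and 85.1 CPM in libraries 1, 2 and 3. In *Gli3*Δ/Δ QSCs it was at 83.4, 90.8 and 102 CPM. The ranges overlapped, with *Gli3*+/+ library 3 among the *Gli3*Δ/Δ values. The means were 108 ± 19.5 CPM in *Gli3*+/+ and 92.1 ± 9.48 CPM in *Gli3*Δ/Δ (SD, n = 3 each), a log2 fold change of −0.22 (SE 0.17, 95% interval −0.60 to 0.15). This did not pass the test (adjusted p = 0.890, edgeR). *Tek* alone made up 40.4% to 59.6% of the summed CPM of the 10 genes.

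Per length of exons, so that genes can be compared, *Tek* was at 21.2 ± 3.42 CPM per kb (SD, n = 6 libraries). *Pecam1* followed at 5.16 ± 1.11 and *Cdh5* at 4.70 ± 1.84 CPM per kb. *Cldn5* (2.19), *Esam* (1.99), *Tie1* (1.88), *Egfl7* (1.75) and *Vwf* (1.71) lay close together in CPM per kb, and *Kdr* (0.843) and *Emcn* (0.555) were lowest. The range of *Tek* over libraries, 17.7 to 25.5 CPM per kb, did not overlap that of *Pecam1*, 3.61 to 6.43, whereas all other neighbours in the order overlapped. *Pecam1* exceeded *Cdh5* in 5 of 6 libraries and *Cdh5* exceeded *Cldn5* in 6 of 6, but *Cldn5* exceeded *Esam* in only 2 of 6. With the longest transcript as the length, *Tek* (21.4 CPM per kb), *Pecam1* (9.34) and *Cdh5* (4.95) kept the first 3 places and *Kdr* and *Emcn* the last 2, while *Egfl7* moved from rank 7 to 4 and *Cldn5* from 4 to 7.

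**Figure D1:**
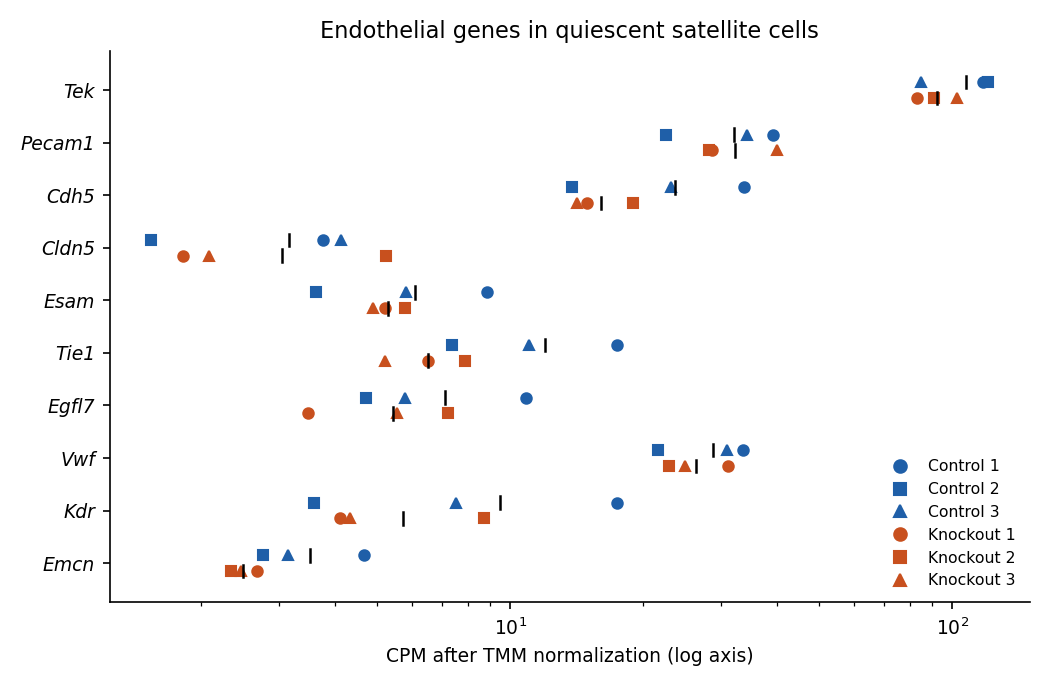
CPM after TMM normalization (log axis) of each gene in each of the 6 QSC libraries, with blue for *Gli3*+/+ (Control), orange for *Gli3*Δ/Δ (Knockout), a marker shape for each library number and a black bar at each group's mean; genes are ordered by level per length. *Tek* lies above all others at 83.4 to 120.3 CPM, the groups overlap for all genes but *Emcn*, and control library 1 is the rightmost blue point in most rows.

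The junction genes were counted in every library of these cells, which had been gated against CD31, at levels far under that of *Pax7*. *Pecam1* (ENSMUSG00000020717.19, chromosome 11, 106654217 to 106750628, minus strand) was at 39.3, 22.5 and 34.4 CPM in *Gli3*+/+ libraries 1, 2 and 3 and at 28.5, 28.2 and 40.05 CPM in *Gli3*Δ/Δ libraries 1, 2 and 3, from 1481 to 2036 counts per library. Both groups spanned nearly the same range, with means of 32.0 ± 8.64 and 32.2 ± 6.77 CPM (SD, n = 3 each) and a log2 fold change of 0.01 (SE 0.23, 95% interval −0.51 to 0.53, edgeR adjusted p = 1). Other genes of the negative gate were lower. *Ptprc*, which encodes CD45, was at 0.252 to 2.11 CPM, *Itgam*, which encodes CD11b, at 0 to 1.54 CPM, and *Ly6a*, which encodes SCA1, at 4.21 to 8.34 CPM. Sorting acts on surface protein, and fewer endothelial cells cannot be told apart from less RNA per cell in bulk libraries. The positive gate genes *Itga7* and *Cd34* were at 373 to 555 and 195 to 302 CPM.

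*Cdh5* (ENSMUSG00000031871.9, chromosome 8, 104101625 to 104144511, plus strand), the endothelial cadherin, was at 33.8, 13.8 and 23.0 CPM in *Gli3*+/+ libraries 1, 2 and 3. It was at 14.9, 19.0 and 14.1 CPM in *Gli3*Δ/Δ libraries 1, 2 and 3. The *Gli3*+/+ libraries held both the highest and the lowest value, and the spread in that group (SD 10.02 CPM around 23.5) was wider than in *Gli3*Δ/Δ (SD 2.60 around 16.01, n = 3 each). The log2 fold change was −0.55 (SE 0.29, 95% interval −1.22 to 0.12, edgeR adjusted p = 0.791), and −0.20 without *Gli3*+/+ library 1.

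*Esam* (ENSMUSG00000001946.14, chromosome 9, 37528078 to 37538319, plus strand), an adhesion molecule of endothelium and platelets, was at 8.86, 3.63 and 5.80 CPM in *Gli3*+/+ and 5.19, 5.77 and 4.90 CPM in *Gli3*Δ/Δ libraries. As for *Cdh5*, the *Gli3*Δ/Δ values lay within the *Gli3*+/+ range. *Cldn5* (ENSMUSG00000041378.2, chromosome 16, 18776847 to 18778262, plus strand), a tight junction protein, was at 3.77, 1.54 and 4.13 CPM in *Gli3*+/+ and 1.81, 5.24 and 2.08 CPM in *Gli3*Δ/Δ libraries, so that its highest value was in *Gli3*Δ/Δ library 2. The log2 fold changes were −0.20 (SE 0.31) for *Esam* and −0.04 (SE 0.49) for *Cldn5*, neither past the test (edgeR adjusted p = 0.949 and 1).

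Of the receptor genes other than *Tek*, *Kdr* varied most between libraries. *Kdr* (ENSMUSG00000062960.10, chromosome 5, 75932827 to 75978458, minus strand), the main signalling receptor for VEGF-A, was at 17.4, 3.59 and 7.52 CPM in *Gli3*+/+ libraries 1, 2 and 3, and at 4.12, 8.70 and 4.35 CPM in *Gli3*Δ/Δ libraries 1, 2 and 3. Its highest value was 4.85 times its lowest, both in *Gli3*+/+ QSCs, and the groups overlapped. The log2 fold change was −0.72 (SE 0.53, 95% interval −1.92 to 0.47, edgeR adjusted p = 0.883). *Tie1* (ENSMUSG00000033191.14, chromosome 4, 118471191 to 118490061, minus strand) was at 17.5, 7.40 and 11 CPM in *Gli3*+/+ and 6.51, 7.88 and 5.19 CPM in *Gli3*Δ/Δ libraries. The groups overlapped only in that *Gli3*Δ/Δ library 2 exceeded *Gli3*+/+ library 2. *Tie1* had a log2 fold change of −0.87 (SE 0.31, 95% interval −1.58 to −0.16), which was −0.49 without *Gli3*+/+ library 1, and was the 1 gene of 10 with an unadjusted p under 0.05, against 7.11% of all genes. It did not pass after adjustment (edgeR adjusted p = 0.565).

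The genes of secreted and surface proteins showed the same overlap in all but 1 case. *Vwf* (ENSMUSG00000001930.17, chromosome 6, 125546774 to 125686679, plus strand) was at 33.7, 21.55 and 30.9 CPM in *Gli3*+/+ and 31.1, 22.9 and 24.8 CPM in *Gli3*Δ/Δ libraries (log2 fold change −0.13, SE 0.20). *Egfl7* (ENSMUSG00000026921.18, chromosome 2, 26580014 to 26593120, plus strand) was at 10.9, 4.71 and 5.78 CPM in *Gli3*+/+ and 3.49, 7.21 and 5.55 CPM in *Gli3*Δ/Δ libraries (log2 fold change −0.39, SE 0.36). The gene overlaps *Gm20532* on the same strand, with which reads could be shared, and *Gm20532* was at 0 in all 6 libraries. *Emcn* (ENSMUSG00000054690.17, chromosome 3, 137341067 to 137432185, plus strand) was at 4.67, 2.76 and 3.13 CPM in *Gli3*+/+ and 2.67, 2.33 and 2.46 CPM in *Gli3*Δ/Δ libraries, from 125 to 188 counts. Each *Gli3*Δ/Δ value of *Emcn* was below each *Gli3*+/+ value, by a narrow gap. That is 1 gene of 10, where 6.57% of all genes had lower, non-overlapping values in *Gli3*Δ/Δ QSCs. The log2 fold change of *Emcn* was −0.50 (SE 0.27, 95% interval −1.11 to 0.11), and −0.24 without *Gli3*+/+ library 1. The edgeR adjusted p was 0.949 for *Vwf*, 0.912 for *Egfl7* and 0.796 for *Emcn*.

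Read together, 0 of the 10 genes were called between *Gli3*Δ/Δ and *Gli3*+/+ QSCs by edgeR, which called 0.351% of all genes. Likewise 0 were called by DESeq2, which called 1.64% of its genes, and by limma voom, which called 0.291%. Of the 10, 9 had a lower mean in *Gli3*Δ/Δ QSCs, where 54.0% of all genes did, and their median log2 fold change was −0.31 against −0.03 over all genes. This median depended on which *Gli3*+/+ libraries were kept. Without *Gli3*+/+ library 1, it was 0.03 and 4 of the 10 genes were lower in *Gli3*Δ/Δ QSCs, where 52.7% of all genes were. With *Gli3*+/+ library 2 left out instead, the log2 fold changes of the 10 genes ran from −1.12 (*Tie1*) to −0.13 (*Tek*). The intervals leave room for sizeable differences in the genes that varied most between libraries. That of *Kdr* ran from −1.92 to 0.47 and that of *Cldn5* from −1.15 to 1.07 on the log2 scale.

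**Figure D2:**
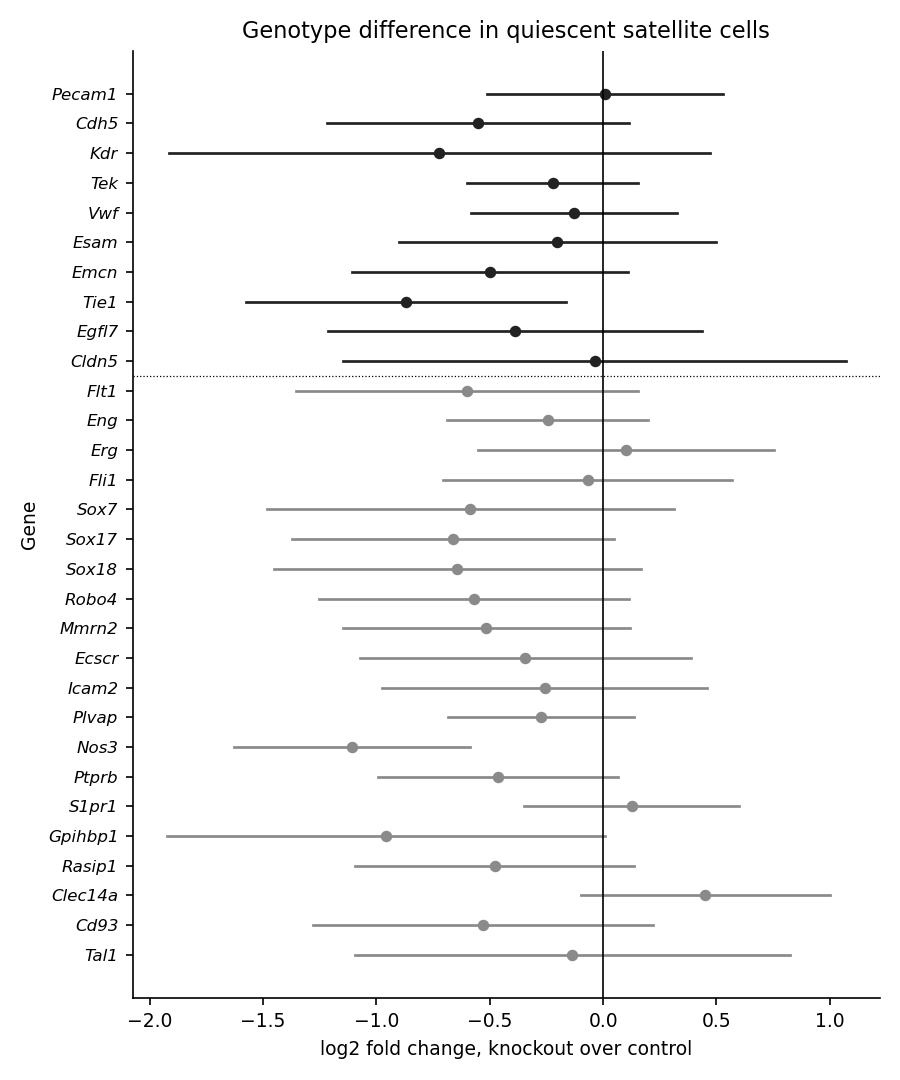
Log2 fold change of *Gli3*Δ/Δ over *Gli3*+/+ QSCs (points) with 95% intervals (lines) for the 10 genes (black, above the dotted line) and 20 further endothelial genes (grey). Most points lie left of 0, and the intervals of *Tie1* and *Nos3* do not reach it.

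*Gli3*+/+ library 1 held the highest value of 7 of the 10 genes (*Cdh5*, *Kdr*, *Vwf*, *Esam*, *Emcn*, *Tie1* and *Egfl7*), where 12.8% of the 14696 genes with a mean of at least 1 CPM were highest in that library. Relative to the mean of the other 5 libraries it was 3.07-fold for *Kdr*, 2.30-fold for *Tie1*, 2.03-fold for *Egfl7* and 1.99-fold for *Cdh5*, but 1.28-fold for *Vwf* and *Pecam1*. The sum of the 9 genes other than *Tek* was 169.7 CPM there, against 81.4 and 125.7 CPM in *Gli3*+/+ libraries 2 and 3 and 98.3, 107 and 103.6 CPM in *Gli3*Δ/Δ libraries 1, 2 and 3. The lowest and the highest sums were both from *Gli3*+/+ QSCs, with the *Gli3*Δ/Δ libraries between them. *Tek* did not follow. In *Gli3*+/+ library 2, where the other 9 genes were lowest, *Tek* was at its highest, and its level was 1.48 times their sum, against 0.690 in library 1. Over the 6 libraries the Pearson correlation of log2 levels between *Tek* and the sum of the other 9 was 0.07. Each other gene correlated with the sum of the members other than itself and *Tek* at 0.56 to 0.96. With the 2 libraries farthest from the median left out, these ran from −0.27 for *Pecam1* to 0.81 for *Cdh5*. For part of the genes they therefore rest on those libraries. *Vwf* was then at −0.13 and *Tek* at −0.23, so that *Tek* no longer stood apart. These correlations describe 6 libraries, each scaled by its own depth.

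**Figure D3:**
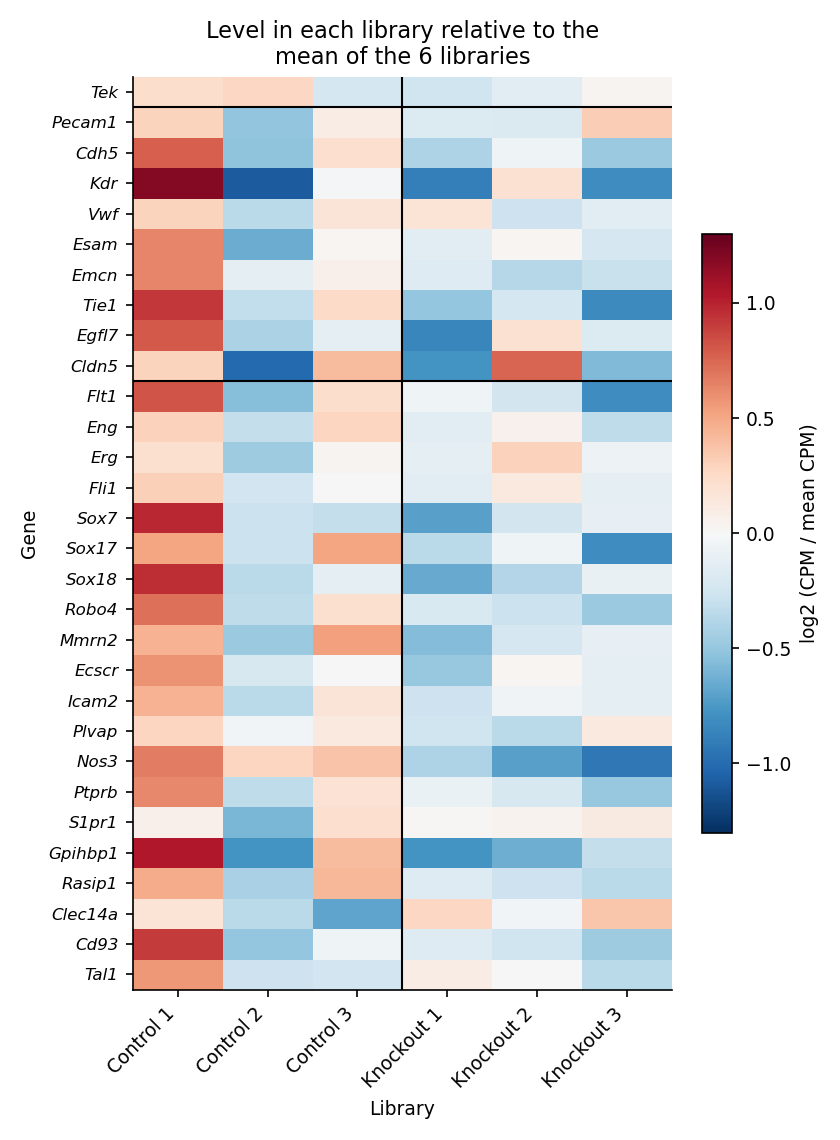
Log2 of the CPM in each QSC library over the mean of the 6 libraries (colour), with *Tek* in the first row, the other 9 genes below it and 20 further endothelial genes under the second line; columns are *Gli3*+/+ (Control) and *Gli3*Δ/Δ (Knockout) libraries 1 to 3. Control 1 is red in nearly all rows and Control 2 mostly blue, whereas *Tek* is above its mean in both.

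A list of 20 further endothelial genes was summed in the same way. They comprise receptors and co-receptors such as *Flt1* and *Eng*, transcription factors such as *Erg*, *Fli1* and *Sox17*, and genes of the vessel wall such as *Nos3* and *Plvap*. Their sum was 237 CPM in *Gli3*+/+ library 1, 130.4 and 188 CPM in *Gli3*+/+ libraries 2 and 3, and 140.8 to 150.3 CPM in *Gli3*Δ/Δ libraries, and 15 of the 20 were highest in *Gli3*+/+ library 1. Of the 19 with a mean of at least 1 CPM, 13 correlated above 0.8 with the sum of the 9 genes (median r 0.86), where 1.28% of 14634 genes did (median r 0.03). These are descriptions over 6 libraries. *Clec14a*, *Erg* and *S1pr1* ran otherwise, with a higher mean in *Gli3*Δ/Δ QSCs. None of the 20 was called by edgeR (0.351% of all genes were), where 1 had an unadjusted p under 0.05 (7.11% of all genes did). DESeq2 called 1 of the 20 (1.64% of its genes were called). Of the 20, 17 had a lower mean in *Gli3*Δ/Δ QSCs, against 54.0% of all genes. The median log2 fold change of the list was −0.47, and it was −0.14 without *Gli3*+/+ library 1, with 15 lower against 52.7% of all genes.

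*Nos3*, the endothelial nitric oxide synthase, was the gene of this list nearest to a call. It was at 7.67, 5.87 and 6.26 CPM in *Gli3*+/+ and 3.66, 2.97 and 2.54 CPM in *Gli3*Δ/Δ libraries. All *Gli3*+/+ values were above all *Gli3*Δ/Δ values. That held for 1 gene of the 20, where 6.57% of all genes had lower, non-overlapping values in *Gli3*Δ/Δ QSCs. The log2 fold change was −1.11 (SE 0.23, 95% interval −1.63 to −0.59), with an adjusted p of 0.1303 by edgeR and 0.00127 by DESeq2. It was chosen after its values were seen, as the 1 gene of the list that a second tool called.

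The genes whose course over the 6 libraries was nearest to the sum of the 9, by Pearson correlation of log2(CPM + 0.5), were *Slc8a3* (r 0.98), *Icam2* (0.98), *Gm2223* (0.97), *Ccnd2* (0.97), *Mmp15* (0.97), *Cyp4b1* (0.96), *Prkch* (0.96), *Fabp5* (0.95), *Ap4s1* (0.94) and *Ptprm* (0.94). With the 2 libraries farthest from the median left out, r fell to 0.48 for *Fabp5* and 0.64 for *Ap4s1*. For the rest of these genes it was then 0.82 to 0.99. *Icam2*, an adhesion molecule, is on the list of further endothelial genes. Those nearest to *Tek* were *Spin4* (0.99), *Dusp4* (0.98), *Peli3* (0.98), *D2hgdh* (0.98) and *Wdr90* (0.97), none of them an endothelial gene of the lists. The 2 sets shared no gene, which the correlation of 0.07 between *Tek* and the sum already fixed.

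Markers of other cells differed between the libraries as well. The 5 erythroid genes (haemoglobin genes and *Alas2*) were all highest in *Gli3*+/+ library 1, with a sum of 373 CPM there, 39.7 and 57.0 CPM in *Gli3*+/+ libraries 2 and 3, and 33.6, 169 and 152 CPM in *Gli3*Δ/Δ libraries 1, 2 and 3. The haemoglobin genes are near-identical pairs, so that reads may be split between copies. The sum of 4 platelet genes ranged from 6.87 to 12.3 CPM in *Gli3*+/+ and 3.64 to 5.15 CPM in *Gli3*Δ/Δ libraries, and was highest in *Gli3*+/+ library 1. *Ppbp*, a platelet chemokine, was at 3.48 CPM in that library and at 0 in the other 5. *Pf4* was at 1.89 CPM there and at 0 to 0.153 CPM in the other 5. *Itga2b* was highest in *Gli3*+/+ library 2 (6.46 CPM, against 4.74 in library 1) and *Itgb3* in library 1 (2.19 CPM). For *Itga2b* and *Itgb3*, each *Gli3*Δ/Δ value was below each *Gli3*+/+ value, as for 6.57% of all genes. Neither was called (log2 fold changes −0.696 and −0.809, edgeR adjusted p = 0.526 and 0.599). The other 3 platelet genes of the list were not in the count table. The 8 leukocyte genes summed to 10.002 to 20.1 CPM in *Gli3*+/+, again highest in library 1, and 10.3 to 14.5 CPM in *Gli3*Δ/Δ libraries. Their part in the endothelial levels was not tested.

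The sum of 9 mural cell genes was 1771 to 2451 CPM in *Gli3*+/+ and 1796 to 2715 CPM in *Gli3*Δ/Δ libraries, most of it from *Notch3*, which satellite cells also express. *Rgs5*, a pericyte gene, was at 43.2, 20.4 and 30.1 CPM in *Gli3*+/+ and 11.1, 24.8 and 13.4 CPM in *Gli3*Δ/Δ libraries. It was 1 of 3 mural genes, of 9, that were highest in *Gli3*+/+ library 1. The 5 fibro-adipogenic genes summed to 173 to 416 CPM in *Gli3*+/+ and 209.9 to 283.5 CPM in *Gli3*Δ/Δ libraries, highest in *Gli3*+/+ library 3. On the lymphatic list of 5 genes, *Lyve1* was at 0.030 to 0.673 CPM and *Mmrn1* at 0 to 1.32 CPM, while *Prox1*, at 146 to 295 CPM, made up most of a sum of 216 to 382 CPM in *Gli3*+/+ and 305 to 381 CPM in *Gli3*Δ/Δ libraries. No gene of the erythroid, platelet, leukocyte, mural, fibro-adipogenic or lymphatic lists was called by edgeR, which called 0.351% of all genes. Of these 36 genes, 7 had an unadjusted p under 0.05, where 7.11% of all genes did. DESeq2, which called 1.64% of its genes, called *Abcc9*, a potassium channel subunit of mural cells that was at 79.4, 89.6 and 69.4 CPM in *Gli3*+/+ and 48.9, 50.6 and 58.3 CPM in *Gli3*Δ/Δ libraries (adjusted p = 0.0377 by DESeq2 and 0.242 by edgeR).

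**Figure D4:**
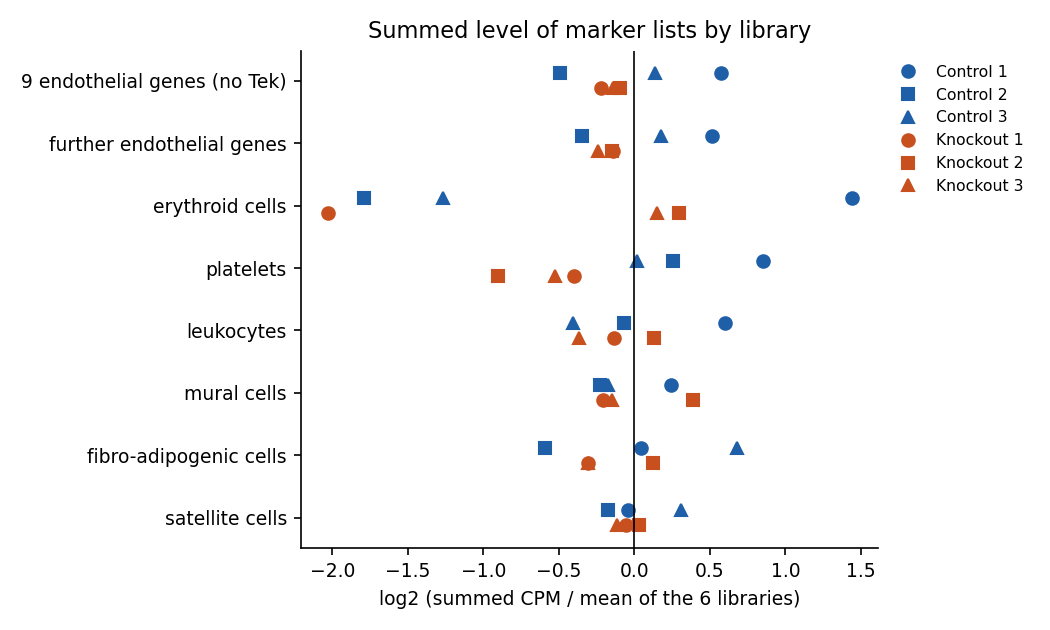
Log2 of the summed CPM of each marker list over the mean of the 6 QSC libraries, with blue for *Gli3*+/+ (Control), orange for *Gli3*Δ/Δ (Knockout) and a marker shape for each library number. Control 1 is the highest point for both endothelial lists and for erythroid, platelet and leukocyte genes, but not for mural, fibro-adipogenic or satellite cell genes.

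The ligands and co-receptors of the endothelial receptors were counted in the same libraries. *Vegfa*, the ligand of KDR, was the highest of the 10 at 90.1 to 133 CPM. *Angpt1*, the activating ligand of TIE2, was at 14.4, 6.67 and 8.70 CPM in *Gli3*+/+ and 7.37, 20.1 and 6.22 CPM in *Gli3*Δ/Δ libraries, and so overlapped between groups. *Angpt2* was at 1.09 to 3.13 CPM and *Angpt4* had no count in *Gli3*+/+ and at most 4 counts in *Gli3*Δ/Δ libraries. Of the 10 genes, 0 were called by edgeR, which called 0.351% of all genes. DESeq2, which called 1.64% of its genes, also called 0, and gave no adjusted p for *Angpt4*. With edgeR, 3 of the 10 had an unadjusted p under 0.05 (7.11% of all genes did), all lower in *Gli3*Δ/Δ QSCs. These were *Vegfc* (log2 fold change −0.53, SE 0.17, edgeR adjusted p = 0.454), *Vegfd* (−0.88, SE 0.31, adjusted p = 0.551) and *Pgf* (−0.93, SE 0.38, adjusted p = 0.658). They encode ligands of the VEGF receptor family and were chosen after their values were seen. The median log2 fold change of the list was −0.29, against −0.03 over all genes, and −0.21 without *Gli3*+/+ library 1.

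Cell state was described only through a pooled mean, since the ASC count columns and the authors' own comparisons were not used. Each of the authors' 4 comparison tables carries a mean normalized count per gene, the same in all 4 tables, which is therefore not a mean of 1 comparison's libraries alone. Scaled to the same total as CPM, this authors' mean was 58.4 for *Tek*, against a mean of 100.2 CPM without TMM over the 6 QSC libraries, a ratio of 0.583, and 5.97% of 14696 genes had a lower ratio. The other 9 genes had ratios above 1, and 60.8% (*Cldn5*) to 86.3% (*Esam*) of the 14696 genes had a lower ratio than theirs. Their ratios ran from 1.10 for *Cldn5* and *Vwf* through 1.26 for *Kdr*, 1.29 for *Tie1*, 1.36 for *Pecam1*, 1.38 for *Cdh5*, 1.43 for *Egfl7* and 1.44 for *Emcn* to 1.76 for *Esam*. The median over the 14696 genes was 0.977, with 47.8% above 1. Of 19 further endothelial genes, 17 had a ratio above 1, with a median of 1.34. Being a mean over pooled libraries, this column gives no spread and no test, and does not show which libraries, state or genotype moved it.

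**Figure D5:**
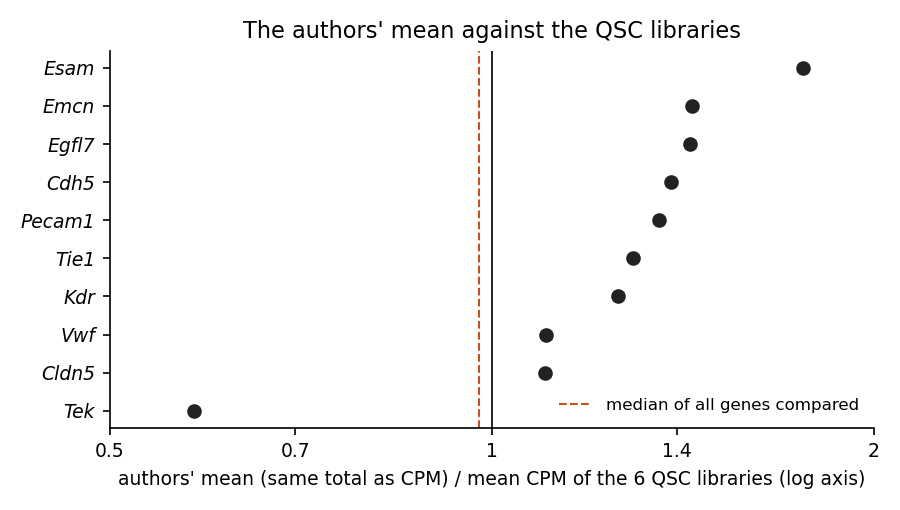
Ratio of the authors' mean normalized count (scaled to the same total as CPM) to the mean CPM of the 6 QSC libraries for each gene (log axis), with a solid line at 1 and a dashed line at the median of 14696 genes. *Tek* is the 1 gene below 1, at 0.583, and *Esam* is highest at 1.76.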

How the data were processed

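The authors assigned reads with salmon to GRCm38 transcripts (GENCODE vM19), summed them to genes with tximport and kept genes with 5 or more reads in 2 or more samples. The deposited values are estimated counts per gene, not normalized; 38.8% of those used here lay more than 0.01 from a whole number, and all were rounded. Columns were matched to samples by title. This gave the 6 QSC libraries, whereas 6 ASC columns fit no label and were not used, so the planned tests of cell state and of genotype in ASCs were not run. The 4 comparison tables hold the authors' fold changes and p-values, which were not used, and a mean signal per gene (the authors' mean of normalized counts), which was scaled to the same total as CPM.

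QSC genotypes were compared over 25093 genes by the quasi-likelihood test in edgeR 4.0.16 (R 4.3.3; TMM, Benjamini-Hochberg adjustment), with calls at an adjusted p below 0.05 and a fold change of 1.2 or more. As alternatives, DESeq2 1.42.0 or limma-voom (3.58.1, with quality weights) replaced edgeR; size factors from DESeq2 replaced TMM; genes were filtered by filterByExpr or by 10 or more counts per library; the replicate number was added as a term; the fold limit was dropped; and single libraries were left out. The tests were checked on simulated data, where estimates lay near the true changes. The first criterion, on the share of changed genes recovered, was not met by limma-voom and was replaced after this was seen. The edgeR test also missed many of the changed genes there, so a gene that was not called may still differ. DESeq2 called more unchanged genes there than edgeR or limma-voom, so its larger number of calls is not taken as more reliable. Samples were grouped by source label, and p-values measure the spread between libraries of combined mice. Precision depends on the totals of 39556730 to 65750087 counts and on the spread between libraries. Gene lengths and coordinates were taken from GENCODE vM21 (also GRCm38), in which 96.3% of identifiers have the same version.

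The 10 genes and the marker lists were chosen with earlier results of these data known. Named are all 10 genes, list genes that were called or define the sort gate, and the genes nearest in pattern (10 to the sum of the members without Tek, 5 to Tek, of mean 1 CPM or more); other list genes were named after their values were seen.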

Additional observations from a re-analysis of the deposited data

How the results depend on the processing

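The count of the 10 endothelial genes called was 0 under all 13 alternatives, with a lowest adjusted p of 0.244 (DESeq2) among 130 estimates. The alternative without the fold limit keeps the reported fit, so its estimates are the reported ones. Over all genes, 88 were called, 384 with DESeq2 (all 88 among them), 48 with at least 10 counts in every library, and 58 to 103 when 1 library was left out, the lowest without Gli3Δ/Δ library 3. Of the 20 further endothelial genes, 1 was called with DESeq2 (Nos3) and 0 otherwise.

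Of the 130 estimates, 11 had the opposite sign, 10 of them with 1 library left out. The log2 fold change then ranged from −0.19 to 0.18 for Pecam1, −1.16 to 0.051 for Kdr, −0.29 to 0.0022 for Vwf, −0.47 to 0.17 for Esam, −0.65 to 0.049 for Egfl7 and −0.69 to 0.23 for Cldn5. The other 4 kept their sign, with ranges of −1.12 to −0.49 for Tie1, −0.82 to −0.20 for Cdh5, −0.64 to −0.24 for Emcn and −0.37 to −0.13 for Tek. Those of Kdr, Vwf, Esam and Egfl7 turned without Gli3+/+ library 1, and that of Cldn5 also with voom, at 0.20. The cause was not tested. The labels give same-numbered libraries only a shared number. Their deviations from the group means correlated at −0.25, −0.03 and −0.06, and those of differently numbered libraries at −0.22 to 0.31. With so few libraries these values do not decide whether libraries were paired. With the replicate number as a block, 79 genes were called and 0 of the 10. With 3 libraries per genotype, intervals are wide for the genes that varied most between libraries, such as Kdr and Cldn5.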
